A study of Saccharomyces cerevisiae with 6 samples.

Results

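The transcripts described here belong to 8 genes: BTN2, CUR1, HSP42, HSP26, HSP104, SIS1, APJ1 and MBF1. All but MBF1, which encodes a coactivator of Gcn4, have products that sort misfolded proteins into deposits or help take such deposits apart. These genes are 8 of 5449 Saccharomyces cerevisiae genes with a named probe set on the arrays, and each has a single probe set. The genes were picked by name, with their differences between the 2 groups of these same 6 arrays already known. Those differences are therefore given as a description with no test. The RNA came from 6 cultures of haploid W303-1A, of mating type a, that all carry the alleles ade2-1, can1-100, trp1-1, leu2-3, 112, ura3-1 and his3-11,15. Every culture also held a pRS413 plasmid on which a GAL promoter drives YRA1, which encodes an RNA-binding mRNA export adaptor. The 3 GAL-YRA1 cultures, titled WT in the labels, carried pRS413::GAL-YRA1, although another label describes them as not overexpressing YRA1, and the 3 GAL-YRA1Δi cultures, titled YRA1∆i, carried the intron-less gene. All were grown in minimal medium with raffinose and moved to 2% galactose for 4 hours, so the control group also expressed plasmid-borne YRA1.

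When proteins misfold, yeast cells gather them at a few sites. Small heat shock proteins and the sorting factors Btn2 and Cur1 hold them there, and the ring-shaped ATPase Hsp104 later threads them out together with Hsp70 and J-domain proteins, which bring substrates to Hsp70. Transcription of most of these genes is raised by the heat shock factor Hsf1, and that of HSP26 also by Msn2 and Msn4.

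Signals are log2 RMA values given as mean ± SD with n = 3 arrays, and a difference is GAL-YRA1Δi minus GAL-YRA1. The SE of a difference is the moderated one of the limma fit on group. It draws on the variance of all probe sets, so it can differ from what the SDs of a gene would give. YRA1 itself was 13.35, 13.22 and 13.44 on GAL-YRA1 arrays 1, 2 and 3 and 14.48, 14.62 and 14.50 on GAL-YRA1Δi arrays, a difference of 1.20 (limma, adjusted p = 0.0102). All 8 genes were above 4.70 on every array, while the highest signal of any probe set was 15.12. The value 4.70 is the 95th percentile of annotated probe sets with no single S. cerevisiae gene. That class stands in for Schizosaccharomyces pombe probe sets and can also hold some that match several S. cerevisiae genes. Of 7 genes that mark a cells, 6 lay between 9.31 and 14.09. BAR1, an a-cell protease gene, lay between 3.14 and 3.47, below that percentile. It was the only one of the 7 whose level went against the labelled mating type. The labels name no bar1 mutation, and neither the probe set nor the strain could be checked. The 4 alpha-cell markers lay between 6.35 and 10.48, also above 4.70, so that cut-off does not separate the mating types. SAG1, an alpha-cell marker, lay between 9.91 and 10.48, as high as the a-cell marker ASG7, between 9.31 and 10.28. Only transcripts were measured, in whole cultures, where a higher level in all cells and a high level in some of them cannot be told apart.

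BTN2, which encodes a short-lived factor that sorts misfolded proteins into deposits, stood apart most cleanly. Its signal was 11.56, 11.98 and 11.36 on GAL-YRA1 arrays 1, 2 and 3 and 13.09, 12.74 and 13.18 on the GAL-YRA1Δi arrays. The groups did not overlap, and the gap of 0.77 between them exceeded the range of 0.62 within GAL-YRA1 and of 0.44 within GAL-YRA1Δi. The means were 11.63 ± 0.31 and 13.01 ± 0.23 (SD, n = 3), a difference of 1.37 (SE 0.19) or 2.59-fold.

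CUR1 is a relative of BTN2 whose product acts in the nucleus. Its signal was 9.54, 9.61 and 9.14 on GAL-YRA1 arrays and 9.91, 10.08 and 10.10 on GAL-YRA1Δi arrays. The groups were again separate, with a smaller gap of 0.30, and the GAL-YRA1Δi arrays lay within 0.19 of each other. Means of 9.43 ± 0.25 and 10.03 ± 0.10 (SD, n = 3) gave a difference of 0.60 (SE 0.14), or 1.52-fold.

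Both small heat shock protein genes were higher in GAL-YRA1Δi cells, and they differed in how even the difference was. HSP42, whose product collects misfolded proteins into cytosolic deposits also in unstressed cells, had signals of 13.09, 12.94 and 12.67 on GAL-YRA1 arrays 1, 2 and 3. On the GAL-YRA1Δi arrays it had 13.62, 13.36 and 13.71. The groups did not overlap, and the means of 12.90 ± 0.21 and 13.56 ± 0.18 (SD, n = 3) differed by 0.66 (SE 0.14), or 1.58-fold.

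HSP26, a small heat shock protein gene that is strongly induced by stress, had the widest difference of the 8 and the widest spread. It was at 11.99, 11.46 and 11.28 on GAL-YRA1 arrays and at 13.88, 12.40 and 13.89 on GAL-YRA1Δi arrays. GAL-YRA1Δi replicate 2 thus lay 1.49 below the highest array of its own group and 0.41 above the highest GAL-YRA1 array. The means were 11.58 ± 0.37 and 13.39 ± 0.86 (SD, n = 3), a difference of 1.81 (SE 0.44) or 3.51-fold, and 2.31 without GAL-YRA1Δi replicate 2. Only 13 of the 5498 probe sets tested had a larger difference, against 23 for BTN2, 99 for HSP42 and 125 for CUR1.

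**Figure D1:**
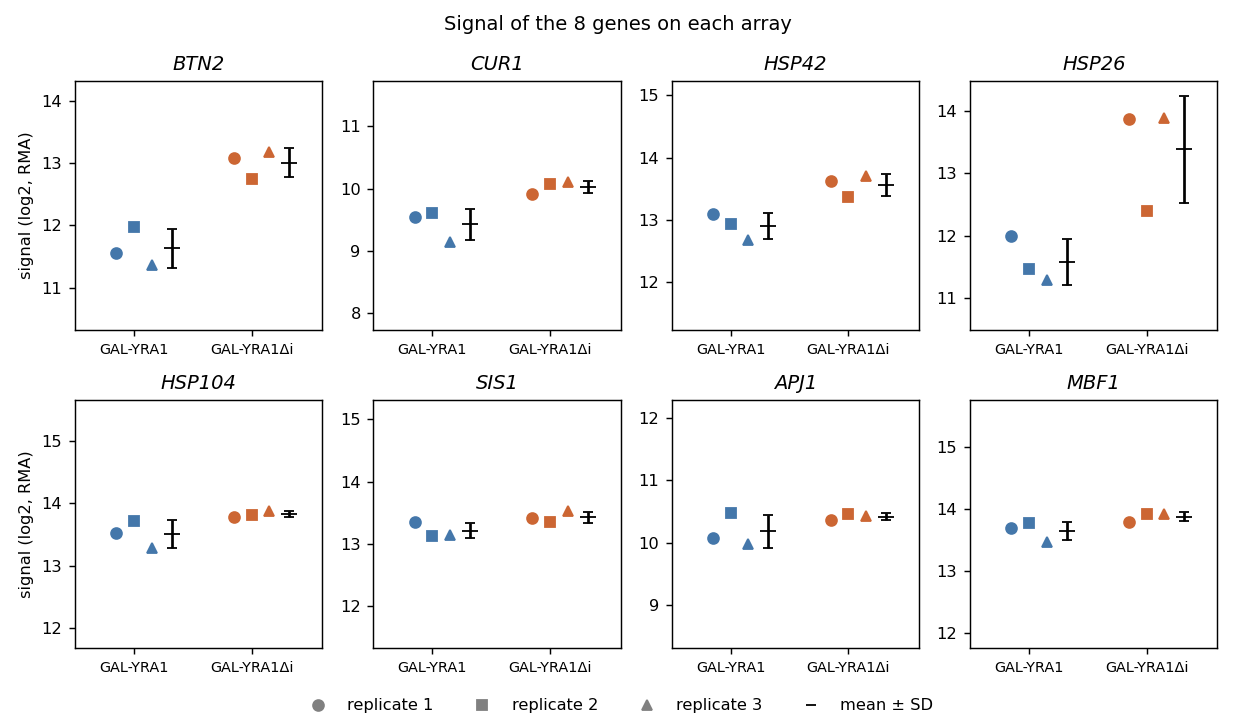
Signal (log2, RMA) of each of the 8 genes on the 6 arrays, by group on the x axis, with symbols for the replicate number and a bar for mean ± SD (n = 3); every panel spans the same range of log2 units. BTN2, CUR1, HSP42 and HSP26 stand clear of the GAL-YRA1 arrays, and HSP26 of GAL-YRA1Δi replicate 2 lies at 12.40, well below the 13.88 and 13.89 of its group.

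The disaggregase and its J-domain partners differed by less. HSP104 encodes the ATPase that pulls proteins out of aggregates. It was at 13.53, 13.71 and 13.28 on GAL-YRA1 arrays and at 13.78, 13.82 and 13.88 on GAL-YRA1Δi arrays. The groups were separated by 0.07, which is below the range of 0.43 among the GAL-YRA1 arrays. Means were 13.51 ± 0.22 and 13.83 ± 0.05 (SD, n = 3), a difference of 0.32 (SE 0.12) or 1.25-fold.

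SIS1, an essential J-domain gene whose product brings Hsp70 to aggregates and is needed to keep yeast prions, had signals of 13.35, 13.13 and 13.15 on GAL-YRA1 arrays. Its signals on GAL-YRA1Δi arrays were 13.41, 13.35 and 13.53, so that the lowest of these met the highest GAL-YRA1 value. The difference was 0.22 (SE 0.09), or 1.16-fold.

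APJ1, another J-domain gene with a role in clearing nuclear aggregates, overlapped more. It was at 10.07, 10.48 and 9.98 on GAL-YRA1 arrays and at 10.37, 10.46 and 10.43 on GAL-YRA1Δi arrays. GAL-YRA1 replicate 2 held the highest value of all 6, and the difference of 0.24 (SE 0.14) was within the 0.50 range of the GAL-YRA1 arrays.

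MBF1, whose product is a coactivator of the amino acid control factor Gcn4 and helps ribosomes keep their reading frame, was at 13.69, 13.77 and 13.47 on GAL-YRA1 arrays. On GAL-YRA1Δi arrays it was at 13.79, 13.91 and 13.91. The gap between groups was 0.02, and the difference was 0.22 (SE 0.09), or 1.17-fold. Signals of HSP104, SIS1 and MBF1 lay in the upper part of the scale, where differences can be compressed. YRA1, with means of 13.34 and 14.54, and HSP42, with 12.90 and 13.56, also lay there and differed by 1.20 and 0.66. Compression was not tested for any gene.

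Across the 8 genes the difference ran from 0.22 to 1.81 with a median of 0.46, and all 8 were positive, as were 52.4% of all probe sets, whose median was 0.01. In 6 of the 8 the GAL-YRA1Δi arrays all lay above the GAL-YRA1 arrays, and in 0 of the 8 all lay below. Over all probe sets, 13.6% were separated upwards and 8.57% downwards. A difference of at least 1.5-fold was met by BTN2, CUR1, HSP42 and HSP26, and by 135 probe sets in all (2.46%). The contrast chose the genes, so these counts describe them only. With the cut-offs named in the methods of the study (1.5-fold and an adjusted p under 0.01), 0% of the probe sets passed in limma, where 885 had an unadjusted p below 0.05. The study itself listed BTN2, CUR1, HSP42 and HSP26 as up-regulated, in a list that also holds genes below 1.5-fold. That list also names genes of the pathway lists below, among them SSA3, SSA4, HSP82, UFD1, RPN4, HSF1 and YAP1. The paper reports that no particular functional class of genes was deregulated. At an adjusted p below 0.05 with the same fold, 0.255% were called higher and 0.146% lower.

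The replicate pairs did not contribute alike. The labels number the cultures of each group 1 to 3, and arrays 1 and 3 deviated from their group means more alike across numbers (correlations of 0.66 and 0.58) than within them (0.34 and 0.30), so which of them form a pair rests on the labels. In pair 3 the difference was the largest of the 3 pairs for 8 of 8 genes, against 35.1% of all probe sets. Among the 138 other genes of the pathway lists below, that share was 55.8%. In pair 3 the difference was 1.82 for BTN2, 2.61 for HSP26, 1.04 for HSP42, 0.96 for CUR1 and 0.60 for HSP104. GAL-YRA1 replicate 3 was the lowest of its group for 7 of the 8 genes, and GAL-YRA1Δi replicate 3 the highest of its group for 7. Both held for 6 of the 8 genes, for 18.8% of the 138 list genes and for 9.15% of all probe sets.

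Pair 2 gave the smallest difference for BTN2 (0.77), HSP26 (0.94), HSP42 (0.42), HSP104 (0.11) and APJ1 (-0.02). Pair 1 gave the smallest for CUR1 (0.37), SIS1 (0.06) and MBF1 (0.10). The median over the 8 genes was 0.33, 0.32 and 0.78 in pairs 1, 2 and 3, while that over all probe sets was 0.01 in each pair. APJ1 in pair 2 was the only value below 0 among the 24 pair differences. Positive in all 3 pairs were 7 of the 8 genes and 27.3% of all probe sets.

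**Figure D2:**
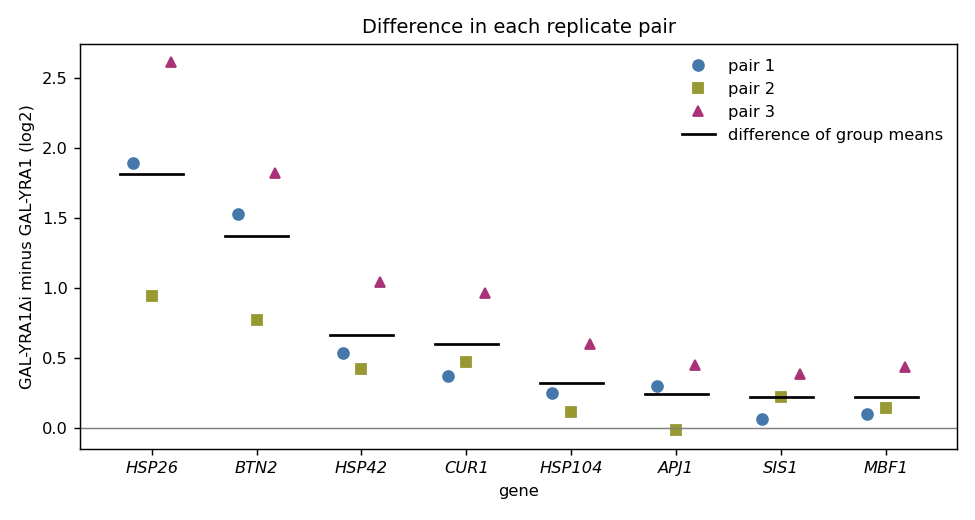
Difference of GAL-YRA1Δi minus GAL-YRA1 (log2) in replicate pairs 1, 2 and 3 for each gene on the x axis, ordered by the difference of group means (horizontal bar). Pair 3 is highest for every gene, and APJ1 in pair 2 lies at -0.02.

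The level of a gene can also vary with replicate number whatever the plasmid. Values of these arrays, also by replicate pair, were known when the genes were picked, so what follows describes the 8 genes only. In a limma fit with group and replicate number, 0 of the 8 genes passed an adjusted p below 0.05 in the F test for replicate number, where 2.58% of all probe sets did (142 of 5498). The adjusted p ran from 0.283 for HSP26 to 0.968 for BTN2, and 0 of 8 had an unadjusted p below 0.05, against 28.9% of all probe sets. HSP26 was 0.83 lower on the replicate 2 arrays than on the other 4, and the other 7 genes differed by -0.12 to 0.25. This F test reads a shift that both groups share, and HSP26 on GAL-YRA1 replicate 2 was not the lowest of its group. For 7 of the 8 genes the SD was larger among GAL-YRA1 than among GAL-YRA1Δi arrays (54.5% of all probe sets), with HSP26 as the exception.

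The genes whose signals over the 6 arrays were most like those of BTN2, by Pearson correlation among 1069 genes with an SD of at least 0.25, were YER078W-A (0.997), the acetyltransferase subunit gene AHC1 (0.996), the reductase gene GRE2 (0.996), YBR284W (0.995) and YGR035C (0.994). Of these, YGR035C spanned the widest range, from 5.04 on GAL-YRA1 replicate 3 to 8.12 on GAL-YRA1Δi replicate 1. Those most like HSP26 were the cell wall mannoprotein gene TIR4 (0.999), YOL024W (0.995), the autophagy gene ATG23 (0.994), the stress-induced Hsp70 gene SSA4 (0.992) and the recombination gene RAD54 (0.992). No gene was shared between these groups of 5. A correlation above 0.9 was reached with BTN2 by 90 of the 1069 genes and with HSP26 by 125. These correlations over 6 arrays in 2 groups describe shape only.

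**Figure D3:**
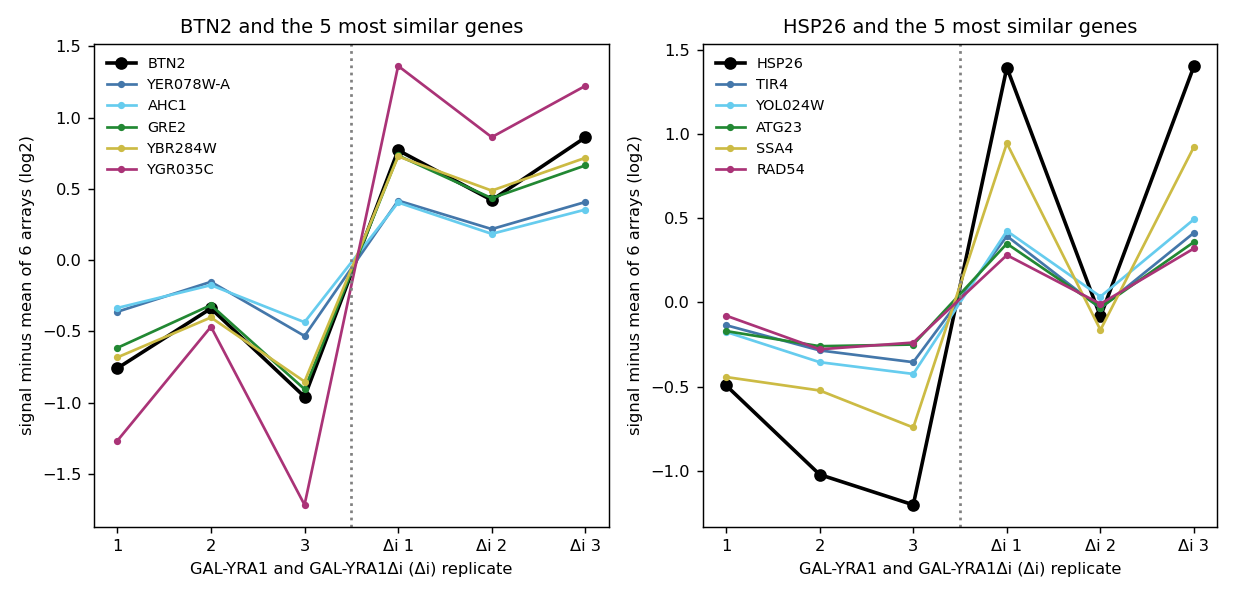
Signal minus the mean of the 6 arrays (log2, y axis) for BTN2 (left) and HSP26 (right), in black, and the 5 genes most correlated with each, on GAL-YRA1 and GAL-YRA1Δi (Δi) arrays 1 to 3; lines only join values of a gene. GAL-YRA1Δi replicate 2 is the lowest of its group in both sets; the highest GAL-YRA1 array is replicate 2 in the BTN2 set and replicate 1 in the HSP26 set.

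To place the 8 genes in their pathway, 10 lists with 138 other measured genes were read from the limma fit on all probe sets, adjusted over all 5498. None of the 138 was called at an adjusted p below 0.05 with 1.5-fold, and 28 were higher (20.3%) and 2 lower (1.45%) at an unadjusted p below 0.05, against 9.79% and 6.31% of all probe sets. The groups were separate upwards for 32 (23.2%) and downwards for 5 (3.62%), against 13.6% and 8.57% of all probe sets. The median difference of the 138 genes was 0.06. The lists were chosen with earlier results of these arrays known.

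Hsp70 is the partner that Hsp104, Sis1 and Apj1 work with, and in its list of 10 genes 9 differences were positive, with a median of 0.22. The stress-induced SSA3 was at 10.20, 9.90 and 10.09 on GAL-YRA1 arrays and at 12.68, 10.72 and 12.72 on GAL-YRA1Δi arrays, a difference of 1.98 (adjusted p = 0.160). SSA4, its close relative, was at 10.89, 10.81 and 10.59 against 12.28, 11.17 and 12.26, a difference of 1.14 (adjusted p = 0.159). In both genes GAL-YRA1Δi replicate 2 lay well below the other arrays of its group, as in HSP26. Without that array the differences were 2.64 (adjusted p = 0.00443) for SSA3 and 1.51 (adjusted p = 0.00763) for SSA4. Neither passed when any of the other 5 arrays was left out instead: SSA3 then differed by 1.64 to 2.05 (adjusted p = 0.245 to 0.508) and SSA4 by 0.95 to 1.21 (adjusted p = 0.225 to 0.508). The exchange factor gene FES1 and the constitutive SSA2 differed by 0.27 (adjusted p = 0.137) and 0.25 (adjusted p = 0.157). The ribosome-bound SSB1 and SSB2 differed by 0.01 each. SSA and SSB genes are close relatives whose probes can cross-hybridise.

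Hsp90 and its cochaperones, which take over clients from Hsp70, had 11 of 12 positive differences, a median of 0.13, and 6 genes with separate groups upwards. CPR6 differed by 0.42 (adjusted p = 0.0806), STI1, which links Hsp70 to Hsp90, by 0.35 (adjusted p = 0.134) and HSP82 by 0.45 (adjusted p = 0.140). Without GAL-YRA1Δi replicate 2 the adjusted p of CPR6 was 0.0365 with a difference of 0.47, below 1.5-fold, and without any other array it was 0.0930 to 0.360.

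Other J-domain genes were more mixed, with 13 of 20 positive and a median of 0.04. YDJ1, the main cytosolic J-domain partner of Hsp70, differed by 0.29 (adjusted p = 0.121), CWC23 by 0.25 (adjusted p = 0.165) and JJJ2 by 0.28 (adjusted p = 0.214). The other AAA+ unfoldases and mitochondrial chaperones had 0 of 11 separate upwards and 1 downwards. Their median was 0.04, with differences from -0.16 to 0.14. Among them HSP78, the mitochondrial relative of HSP104, differed by 0.08 (adjusted p = 0.710), CDC48 by 0.14, SSQ1 by 0.12 and ECM10 by -0.14.

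Proteins that are not refolded are marked with ubiquitin. That list of 20 genes had 15 positive differences, a median of 0.09 and 5 genes separate upwards, among them genes for partners of the Cdc48 ATPase and for a ubiquitin shuttle. UFD1 was at 9.99, 10.25 and 9.96 on GAL-YRA1 arrays and at 10.68, 10.56 and 10.61 on GAL-YRA1Δi arrays, a difference of 0.55 (adjusted p = 0.0796). The adjusted p was 0.0459 without GAL-YRA1 replicate 2 and 0.0612 to 0.350 without any other array. The shuttle gene DSK2 differed by 0.30 (adjusted p = 0.0959) and NPL4, for the partner of Ufd1, by 0.25 (adjusted p = 0.205). SAN1, a nuclear ligase gene for misfolded proteins, differed by 0.15 (adjusted p = 0.674).

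Genes of proteins that form prions or other aggregates, the substrates of these factors, had a median of 0.04 over 13. RNQ1, SUP35 and URE2 differed by 0.01, 0.09 and 0.06 (adjusted p = 0.962, 0.643 and 0.742). PIN4 differed by 0.31 (adjusted p = 0.0952), LSB1 by 0.12 and MOD5 by -0.17. Trafficking factors linked to Btn2 had a median of -0.07 over 13 genes, with ATG8 at 0.43 (adjusted p = 0.159) and RHB1 at -0.10. SNX4 differed by 0.39 (adjusted p = 0.413), and blocking on replicate number gave an adjusted p of 0.0491, below 1.5-fold. For MBF1, the factors of Gcn4 control and stalled ribosomes had a median of 0.07 over 11 measured genes, with GCN4 at 0.07 (adjusted p = 0.674), GCN20 at 0.17 and SYH1 at 0.14.

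Of the stress transcription factors, 3 of 8 had separate groups upwards and 1 downwards, against 13.6% and 8.57% of all probe sets. HSF1, for the main activator of most of the 8 genes, was at 10.64, 10.57 and 10.58 on GAL-YRA1 arrays and at 10.94, 10.84 and 10.92 on GAL-YRA1Δi arrays, a difference of 0.30 (adjusted p = 0.0983). RPN4, which drives proteasome genes, was at 12.27, 12.22 and 12.13 on GAL-YRA1 arrays and at 13.04, 12.71 and 13.05 on GAL-YRA1Δi arrays, a difference of 0.73 (adjusted p = 0.0652). It passed with replicate number as a block (adjusted p = 0.0437) and when GAL-YRA1Δi replicate 2 was left out (adjusted p = 0.00960), and not when any other array was left out (adjusted p = 0.0971 to 0.323). YAP1, the oxidative stress factor, differed by 0.66 (adjusted p = 0.108; 0.0471 without GAL-YRA1 replicate 2, and 0.107 to 0.399 without any other array). MSN2 and MSN4 differed by 0.06 and 0.12 (adjusted p = 0.868 and 0.686).

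The general stress genes that Msn2 and Msn4 control had 10 of 20 positive differences, which ran from -0.38 to 1.93 with a median of 0.01. HSP12 differed by 0.29 (adjusted p = 0.124), DDR2 by 0.40 (adjusted p = 0.194) and DDR48 by -0.24 (adjusted p = 0.177). GRE1 was at 8.93, 8.52 and 9.12 on GAL-YRA1 arrays and at 11.93, 9.03 and 11.41 on GAL-YRA1Δi arrays, a difference of 1.93 (adjusted p = 0.275). Its value on GAL-YRA1Δi replicate 2 lay among the GAL-YRA1 values, and without that array the difference was 2.81 (adjusted p = 0.00841). Without any of the other 5 arrays it was 1.36 to 2.06 (adjusted p = 0.380 to 0.657). The trehalose genes TPS1 and TPS2 differed by 0.03 and -0.03.

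**Figure D4:**
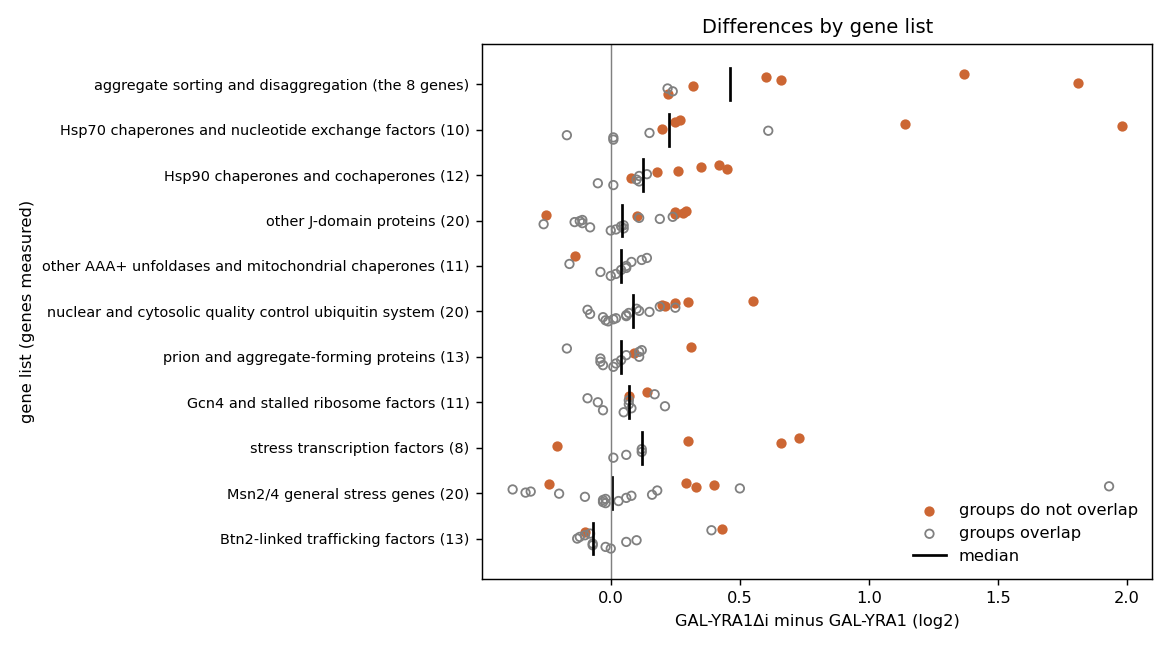
Difference of GAL-YRA1Δi minus GAL-YRA1 (log2, x axis) for each measured gene of each list (y axis, number of genes in parentheses), with the list median as a vertical bar and filled points where the groups do not overlap. The 8 genes have a median of 0.46, the Hsp70 list 0.22 and the Msn2/4 list 0.01, and vertical scatter within a list has no meaning.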

How the data were processed

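Total RNA of 6 cultures was hybridised to 1-colour Affymetrix Yeast Genome 2.0 arrays, 3 per group by the labels. The authors deposited log2 values of 10928 probe sets made by RMA, which gives all arrays the same distribution and hides any shift common to most transcripts. Their processing notes also name limma. Versions and a genome build are not given in the sources used here.

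Probe sets were named by Entrez gene through the platform annotation and a RefSeq table of the R64 assembly, giving 5498 S. cerevisiae probe sets of 5449 genes. Another 1747 were annotated but had no single gene in that table. They were read as probe sets of other organisms and can include some that match several S. cerevisiae genes. A gene was read from its brightest probe set. RQT4 had none. No sequences or coordinates are given.

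The contrast was fitted on group alone (limma 3.58.1, R 4.3.3) and adjusted by Benjamini-Hochberg over all 5498 probe sets, and the code was tested on simulated data. Named are the 8 genes, YRA1, the 3 lowest p in each list, and the 5 most correlated with BTN2 and HSP26. SSA3, SSB1, SSB2, HSP78, SAN1, RNQ1, SUP35, URE2, MSN2, MSN4, GRE1, TPS1, TPS2 and the markers were added after their values were seen. The members and lists were chosen with earlier results of these data known. Deviations of same-numbered arrays correlated at 0.34, 0.69 and 0.30, each above 0.1, so replicate numbers were treated as pairs in the pair differences. The fits with replicate number also used them, and the main contrast did not. Arrays numbered 1 and 3 correlated more across numbers (0.66 and 0.58). The labels call the cultures biological replicates. The number of arrays limits the precision.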

Additional observations from a re-analysis of the deposited data

How the results depend on the processing

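The median difference of the 8 genes, 0.46, was 0.33 to 0.55 with 1 array left out, 0.45 with quantile normalization over the S. cerevisiae probe sets and 0.54 without both arrays numbered 2, an alternative added after the data were seen. No gene of the 8 turned negative in these settings. HSP26 ran from 1.56 to 2.31, BTN2 from 1.24 to 1.68, CUR1 from 0.46 to 0.69, HSP42 from 0.55 to 0.78, HSP104 from 0.21 to 0.43, SIS1 from 0.17 to 0.29, APJ1 from 0.14 to 0.39 and MBF1 from 0.14 to 0.29. The count of 22 probe sets called at an adjusted p below 0.05 and 1.5-fold became 79 with the replicate block, 0 to 115 with 1 array left out, 231 without both arrays numbered 2, and 0 with GAL-YRA1Δi arrays 1 and 3 averaged, also added after the data were seen. It was 0 without GAL-YRA1 replicate 1 or 3 or GAL-YRA1Δi replicate 1 or 3, 46 when GAL-YRA1 replicate 2 was left out and 115 when GAL-YRA1Δi replicate 2 was. The count of 0 list genes became 1 with the replicate block, 0 to 4 with 1 array left out and 9 without both arrays numbered 2, which called SSA3, SSA4, SSE2, HSP82, UFD1, RPN4, YAP1, GRE1 and ALD3. The replicate block called RPN4 and changed no other named call. The cause was not tested. The count of 0 of the 8 genes for replicate number stayed at 0 in all 5 alternatives run. The fits without dim probe sets, on all probe sets, with equal medians, with an intensity trend and with no fold threshold left both counts within 1.5 times. No list gene named by the rule changed direction.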
